A study of Bos taurus with 12 samples.

Results

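The intralobular stroma of the bovine mammary gland was described from 6 of the 12 arrays of the study, the 6 whose titles name stroma. Each came from another dry Holstein cow, biopsied 3 weeks before calving, and the epithelium of the same cows on the remaining 6 arrays was not compared with it here. Explants of the gland were cultured for 2 h with insulin, hydrocortisone and the thymidine analogue BrdU, all groups alike, and were then frozen. Intralobular stroma was cut from stained frozen sections by laser capture, lysates of several slides of a cow were pooled, and the amplified RNA was hybridized to a Bovine GeneChip. By the study's methods, vessels and obvious immune cells were avoided so as to enrich for fibroblasts, and the capture held whatever cells remained in the area cut. The labels give a lactation number of 3 for cow 1, 2 for cow 2 and 1 for cows 3 to 6, although the methods call the cows multiparous. The hormone concentrations differ between the labels and the methods and are not settled here.

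Intralobular stroma is the loose connective tissue that fills the lobule between the alveoli and small ducts. Its fibroblasts secrete collagens, proteoglycans and growth factors that surround the epithelium. Capillaries with endothelial cells and pericytes run through it, and before calving it also holds plasma cells, which secrete antibodies. Milk proteins such as the caseins are made by the secretory epithelium of the alveoli next to it.

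Values are log2 intensities after RMA, a method that corrects background, normalizes arrays to a common distribution and summarises the probes of a probe set. A gene is represented by its brightest probe set with a single gene symbol, and 5210 genes remained among the 10000 brightest of the 24016 probe sets that are not controls. Of the 24 poly-A control probe sets, which read bacterial control transcripts and no bovine gene, the mean was 4.28 in cow 1, 4.15 in cow 2, 7.10 in cow 3, 9.07 in cow 4, 10.99 in cow 5 and 10.39 in cow 6. The correlation with the other 5 arrays, averaged per array and taken across probe sets that are not independent replicates, was lowest in cow 5, at 0.723, and highest in cow 2, at 0.820. The arrays of cows 1 and 2 were the closest pair (r = 0.893) and those of cows 5 and 6 the most distant (r = 0.693). Cows 5 and 6 had the 2 lowest averages and the 2 highest poly-A controls, and several results are also given without them. The average of cow 6, 0.762, was however near those of cows 3 and 4, both 0.783, so these 2 arrays do not form a group apart. The GAPDH gap is the excess of the control probe set at the 3′ end of GAPDH over that at the 5′ end. It was 3.76, 2.80, 2.72, 3.74, 2.31 and 4.75 in cows 1 to 6, widest in cow 6. The study's methods judged the 3′ to 5′ ratio of GAPDH on its arrays suitable, and how this gap relates to that ratio was not tested. The number of arrays limits the precision, and in pooled tissue fewer cells of a type and less RNA per cell cannot be told apart.

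The fibroblast markers of the labelled tissue were bright and even in all 6 captures. VIM, the intermediate filament of mesenchymal cells, had a log2 value of 9.38, 9.13, 9.48, 9.08, 9.13 and 8.84 in cows 1 to 6 (mean 9.17 ± 0.23, SD, n = 6). S100A4, a calcium-binding protein of fibroblasts, had 8.81, 9.70, 9.50, 9.55, 8.94 and 9.26 (9.30 ± 0.36). DCN, decorin, a proteoglycan that binds collagen fibrils, had 9.90, 10.70, 10.54, 10.34, 9.95 and 11.07 (10.42 ± 0.45). These markers lay far above the array medians, which ran from 2.97 to 3.06, in every cow. COL3A1, which forms the fibrils of type III collagen, had 11.55, 11.56, 11.80, 11.86, 11.52 and 12.41 (11.78 ± 0.34), highest in cow 6. PECAM1, an adhesion protein of endothelial junctions, was lower and more uneven, with 8.03, 8.18, 7.58, 5.80, 5.84 and 6.89 (7.05 ± 1.05). IGHM, the heavy chain of IgM, had 10.43, 12.54, 11.55, 11.97, 12.37 and 12.65 (11.92 ± 0.84), lowest in cow 1.

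**Figure D1:**
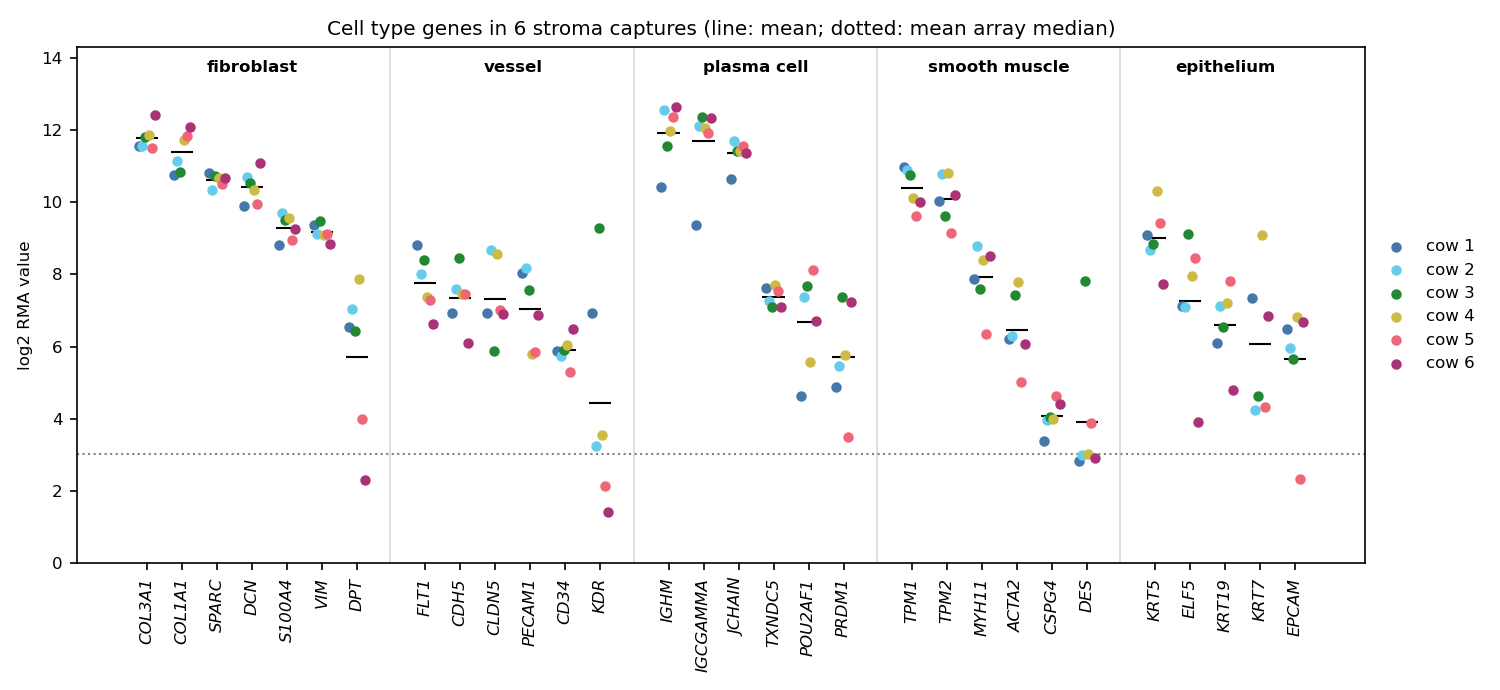
Log2 RMA values of named genes of 5 cell types in the 6 stroma arrays, grouped by cell type along the x axis, with a point per cow and a line at the mean. The dotted line is the mean of the array medians. Collagens, DCN, S100A4 and VIM form tight groups of points, while KDR, DES, DPT and KRT7 spread widely.

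The brightest genes of the stroma captures included ribosomal proteins, COL3A1 and antibody heavy chains. TPT1, a translationally controlled growth protein, led with a mean of 12.77 ± 0.10 (SD, n = 6), followed by B2M, the light chain of MHC class I, at 12.36 ± 0.29. Of the 15 genes with the highest means, 7 encode cytosolic ribosomal proteins, led by RPL38 at 12.18 ± 0.18, RPL13A at 11.95 ± 0.21 and RPS24 at 11.95 ± 0.25, and EEF1A1, the factor that brings tRNA to the ribosome, had 11.58 ± 0.29. Among the 50 brightest genes, 17 were ribosomal, beside 66 of all 5210 genes. TMSB10, which binds actin monomers, and ACTB, a cytoskeletal actin, had means of 12.04 ± 0.15 and 11.98 ± 0.16. The remaining genes of the 15 were COL3A1, in position 10, IGHM, in position 8, and IGCGAMMA, annotated as the constant region of an IgG heavy chain, in position 12 with a mean of 11.69 ± 1.14. Probe sets differ in how strongly they bind, so this is an order of signal and not of transcript number, and the gene after the 15 differed from the last of them by less than the SD of either (11.51 against 11.52). Immunoglobulin and ribosomal probe sets can also read near-identical copies, so their values may be shared between copies.

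Further matrix genes were bright as well. COL1A1 and COL1A2, the chains of type I collagen, had means of 11.40 ± 0.56 and 10.56 ± 0.38. COL1A1 had 10.75, 11.15, 10.84, 11.73, 11.84 and 12.09 in cows 1 to 6, lowest in cow 1 and highest in cow 6. SPARC, which binds collagen outside the cell, had 10.62 ± 0.17, LUM, a small proteoglycan, 9.47 ± 0.34, FBN1, the microfibril protein fibrillin, 9.94 ± 0.62, and FN1, fibronectin, 9.35 ± 0.26. Of the other collagens, COL15A1 of the zone under basement membranes had 9.73 ± 0.29, COL4A1 of basement membranes 8.84 ± 0.49 and COL5A2, which joins fibrils of types I and III, 8.66 ± 0.21. FBLN1, a glycoprotein of elastic fibers and basement membranes, had 10.42 ± 0.43, VCAN, a large proteoglycan, 7.89 ± 0.78, and FBLN5, which helps to assemble elastic fibers, 7.88 ± 0.41.

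Several secreted signals and early response genes were bright. IGFBP7, a secreted binding protein, had a mean of 11.29 ± 0.49 (SD, n = 6), CCL2, a chemokine for monocytes, 11.17 ± 0.79, and MYOC, a secreted glycoprotein, 9.60 ± 0.33. CCL2 was highest in cow 2, at 12.37, and lowest in cow 6, at 10.03. C3, the central complement protein, had 10.46 ± 0.75, SERPING1, the inhibitor of the first complement component, 9.76 ± 0.57, and C1S, a protease of that component, 8.35 ± 0.78. All 17 immediate-early genes found on the array by a single symbol were among the genes kept, beside 6480 of the 13292 probe sets with 1 symbol. They were led by JUND at 11.46 ± 0.34, JUN at 11.25 ± 0.86 and EGR1 at 10.82 ± 0.70, transcription factors that are induced within minutes of a stimulus. MYC, a regulator of growth, was steady at 9.04 ± 0.24. ATF3, a stress-induced factor, was the most variable of them, from 3.90 in cow 4 to 9.12 in cow 3 (SD 1.81). Each capture had passed through the biopsy and the culture, and no capture without culture was analysed here.

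The genes of least spread were sought among bright genes, since spread depended on brightness. Among the 25% of genes with the highest means, DDX5, an RNA helicase, had the lowest SD, 0.07, around a mean of 11.20, with values from 11.07 to 11.26. RBM5, a splicing regulator, ARPC1B, a subunit of the complex that branches actin, RPS3A, a ribosomal protein, PICALM, an adaptor of clathrin coats, and LAMC1, a laminin chain of basement membranes, had SDs from 0.10 to 0.13. ACTG1, the second cytoskeletal actin, TPT1, TMSB10 and ACTB completed the 10 steadiest genes, with SDs of 0.14, 0.10, 0.15 and 0.16. The steadiness held for the probe set shown and not always for the gene. A fainter probe set of RBM5 ranged from 2.96 to 6.92 and a fainter one of ACTG1 from 7.17 to 8.50.

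Spread over the cows depended on brightness. Over the 5210 genes the median SD was 0.999, with quartiles of 0.655 and 1.41, and 314 genes (6.03%) had an SD over 2. Without cows 5 and 6 the median SD was 0.781 and 215 genes had an SD over 2. In 10 bins of equal size by mean the median SD was 0.56 for the brightest genes, 1.19 for the fourth bin and 0.84 for the faintest. Lists are therefore set both against all genes and against genes of like mean. The top 10% of all genes by SD, 521 genes, had an SD of at least 1.81, and within bins of like mean the corresponding share was 9.98% (520 genes).

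**Figure D2:**
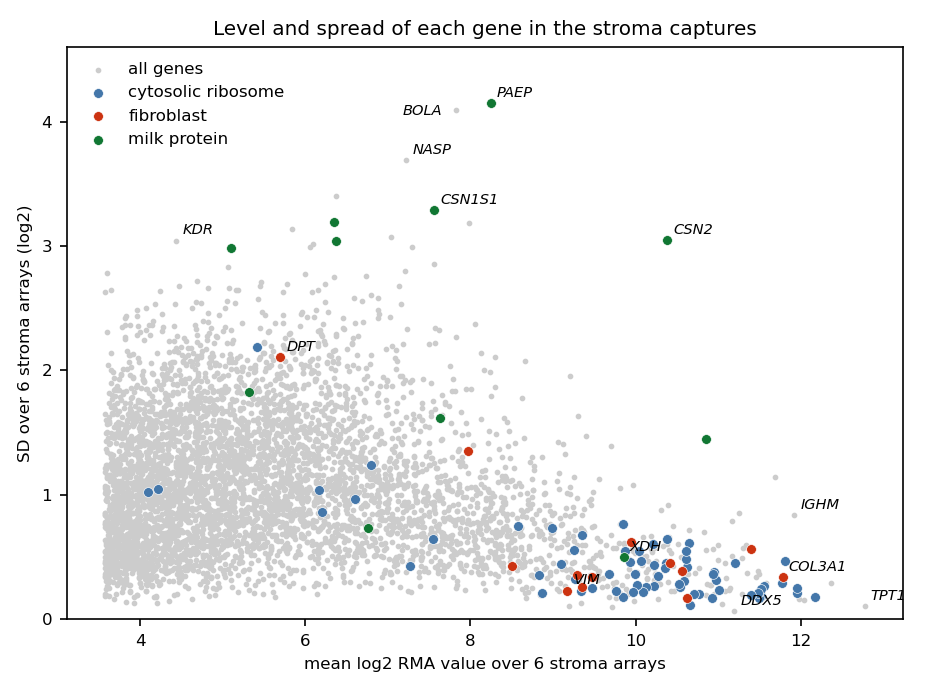
Mean log2 RMA value over the 6 stroma arrays (x axis) against the SD over the same arrays (y axis) for 5210 genes in grey, with ribosomal protein, fibroblast and milk protein genes in colour. Most fibroblast and ribosomal genes lie at a high mean and an SD below 1, and milk protein genes reach SDs of 3 and above.

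The agreement between probe sets of a gene set a limit on single values. For 972 genes with more than 1 kept probe set, the values of the brightest were compared with those of each other one over the 6 arrays, in 1270 comparisons. The median correlation was 0.17, and 772 (60.8%) were above 0. These are descriptions over 6 shared arrays. For the 521 genes of high SD the median was also 0.17, over 141 comparisons of 111 genes. For 6 of the 15 genes with the highest SD it was 0.77, over 8 comparisons, of which 7 were above 0. A gene read by a single probe set has no such check.

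The largest spread in the stroma captures belonged to milk protein genes. Of the 15 genes with the highest SD, 5 encode milk proteins. PAEP, the whey protein beta-lactoglobulin, had the highest SD of all, 4.15, with log2 values of 9.68, 11.31, 11.71, 2.80, 10.85 and 3.14 in cows 1 to 6. CSN1S1, alpha-S1-casein, had 8.55, 11.01, 9.19, 6.00, 8.91 and 1.71 (SD 3.29). CSN2, beta-casein, had 11.67, 12.79, 12.58, 8.95, 11.47 and 4.82 (SD 3.05). LALBA, alpha-lactalbumin, which directs lactose synthesis, had 6.98, 10.40, 7.65, 2.95, 8.03 and 2.10 (SD 3.19), and CSN1S2, alpha-S2-casein, had 5.67, 11.01, 8.11, 6.08, 5.55 and 1.84 (SD 3.04). In all 5 the lowest value or the one next to it came from cow 6, and cow 2 gave the highest value of each but PAEP, for which it was cow 3. PAEP and LALBA were below the median of their array in cow 4, and LALBA, CSN1S1 and CSN1S2 in cow 6.

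The rest of the milk protein list was less uniform. Of 12 genes on the array, 11 were kept, and 7 of them (63.6%) were in the top 10% by SD, against 10% of all genes. The same number, 7, was in the top 10% among genes of like mean. The median SD of the list was 2.99. GLYCAM1, a mucin of whey, had 5.82, 10.19, 4.91, 1.97, 5.45 and 2.23 (SD 2.99), and BTN1A1, a protein of the fat globule membrane, had a lowest value of 2.74 in cow 6 and a highest of 6.92 in cow 3 (SD 1.82). CSN3, kappa-casein, stayed between 10.94 and 12.13 in cows 1 to 5 and was 8.02 in cow 6. XDH, xanthine dehydrogenase of the fat globule membrane, which other cells also express, had a mean of 9.86 ± 0.50, and LTF, lactoferrin, an iron-binding defence protein, ran the other way, highest in cow 4 at 10.14 and lowest in cow 5 at 5.82. LPO, lactoperoxidase, lay outside the genes kept, with a mean of 2.23.

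Most milk protein genes shared an order of the cows. Over the 55 pairs of the list the median correlation was 0.74, and 47 pairs were above 0, against a median of 0.01 over all pairs of genes. The most alike pair was CSN1S1 and CSN2 (r = 0.99), chosen as the highest of the 55 and given without a test. The 2 fainter probe sets of CSN2 followed the brightest (r = 0.97 and 0.99). Without cow 6 the median correlation of the list was 0.54, and it was 0.71 without cows 5 and 6. Milk protein genes with an SD over 2 numbered 6 with all cows, 4 without cow 6 and 5 without cows 5 and 6.

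**Figure D3:**
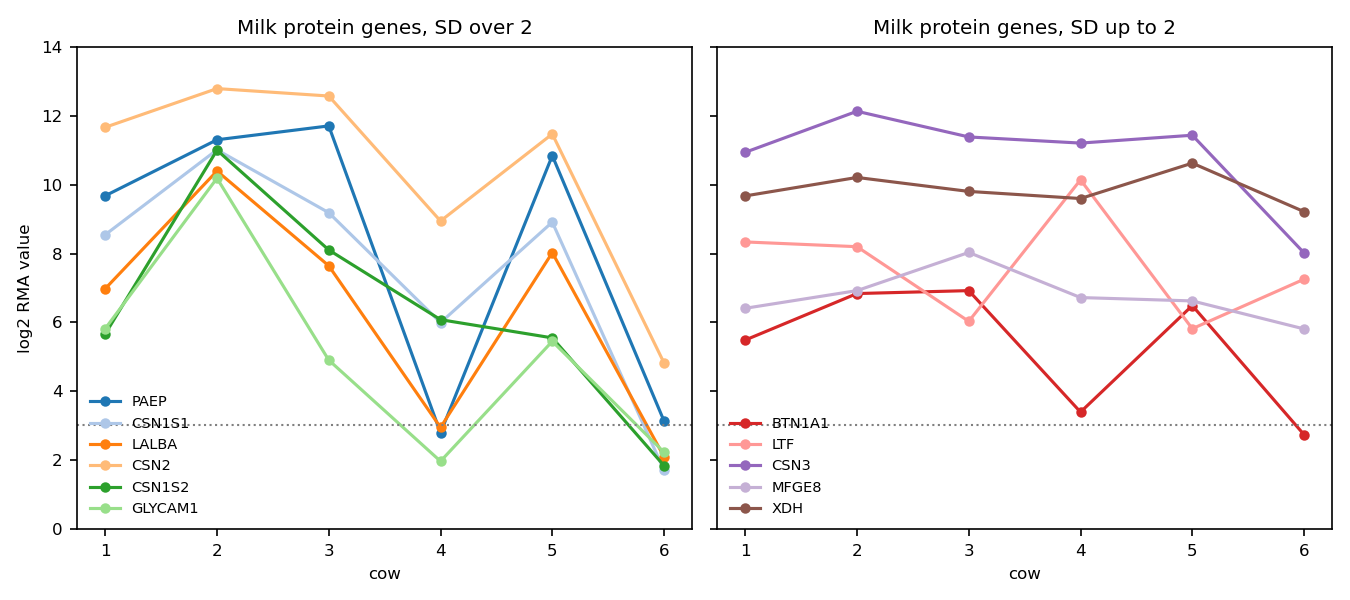
Log2 RMA values of the 11 milk protein genes in the 6 stroma arrays, one line per gene, with genes of SD over 2 on the left and the others on the right. Lines only join the points of a gene, since cows have no order, and the dotted line is the mean of the array medians. PAEP, CSN1S1, CSN2, LALBA and GLYCAM1 have their 2 lowest values in cows 4 and 6, and LTF is highest in cow 4.

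The mean of the luminal epithelium markers had another order of the cows than that of the milk proteins, but the markers had little order in common. The median correlation over their 45 pairs was 0.18, and 25 pairs were above 0. Of 19 luminal genes on the array, 10 were kept, and the mean of these was 5.21, 4.58, 4.98, 6.28, 4.91 and 5.11 in cows 1 to 6, highest in cow 4, while the mean of the milk protein list was 8.11, 10.09, 8.76, 6.35, 8.30 and 4.44. KRT7, a keratin of simple epithelium, had 7.34, 4.25, 4.62, 9.10, 4.34 and 6.84 (SD 1.99), high in cows 1, 4 and 6. ELF5, a transcription factor of secretory alveoli, had 7.14, 7.09, 9.12, 7.95, 8.46 and 3.92 (SD 1.82), low in cow 6. KRT19, another keratin of simple epithelium, averaged 6.60 ± 1.06 and EPCAM, an epithelial adhesion protein, 5.66 ± 1.69, with 2.33 in cow 5. The 9 luminal genes outside those kept, among them KRT8, CLDN3 and CLDN7, had means from 1.90 to 3.51. In the luminal list 2 of 10 genes (20%) were in the top 10% by SD, and 1 against genes of like mean.

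Of the markers of myoepithelium, the contractile layer around alveoli, 5 of the 6 on the array were kept. KRT5, a basal keratin, had 9.08, 8.69, 8.86, 10.31, 9.43 and 7.74 (mean 9.02 ± 0.85), although its second probe set had a mean of 4.17 and moved against it (r = -0.66). KRT17 averaged 6.33 ± 0.85 and KRT14, the partner of KRT5, 6.02 ± 1.37. ITGB4, the beta-4 integrin of hemidesmosomes, was 11.95 in cow 6 and 3.60 to 6.19 in the other cows. CDH3, a cadherin of basal cells, had 7.85, 2.66, 4.71, 3.71, 3.40 and 2.55, below the median of the array in cows 2 and 6. Of the 5 genes 2 (40%) were in the top 10% by SD, and the median correlation over their 10 pairs was -0.18. The part that epithelial RNA had in the spread of the milk proteins was not tested.

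The remaining genes of highest SD fell into several orders of the cows. BOLA, annotated as a bovine MHC class I heavy chain, had 11.86, 11.13, 4.30, 4.65, 11.64 and 3.42 (SD 4.09), high in cows 1, 2 and 5 and low in cows 3, 4 and 6. BOLA-N, a second gene of the family chosen after its values were seen, had 7.70, 6.94, 1.94, 2.08, 6.78 and 2.67, with the same cows high. B2M, the light chain that pairs with these proteins, was even, from 11.79 to 12.61. MHC class I genes are a family of similar and variable copies, so which copies the probe sets read is uncertain. NASP, a histone chaperone, had 9.26, 9.35, 1.96, 9.61, 3.03 and 10.14 (SD 3.69), low in cows 3 and 5. METTL6, a tRNA methyltransferase, was low in the same cows, at 4.08 and 2.94, and between 8.35 and 9.86 in the others. SLC25A20, the mitochondrial carnitine carrier, was low in cows 4 and 5, at 2.11 and 2.58, and highest in cow 2, at 10.98 (SD 3.40). COX8B, a subunit of cytochrome c oxidase, was 2.37 in cow 5, 6.12 in cow 4 and 9.06 to 10.57 in the others. HCLS1, a cytoskeletal adaptor of blood cells, was 1.60 in cow 6 and 5.56 to 9.61 in the others, but its second kept probe set was highest in cow 3, at 6.91. SLC8A1, a sodium and calcium exchanger, was highest in cow 3, at 10.27, and lowest in cow 6, at 2.80, and of its other kept probe sets one followed it (r = 0.97) and another moved against it (r = -0.82). TASP1, a protease that cleaves nuclear proteins, was low in cows 2 and 4, at 3.10 and 1.73, and 6.15 to 8.61 in the others.

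**Figure D4:**
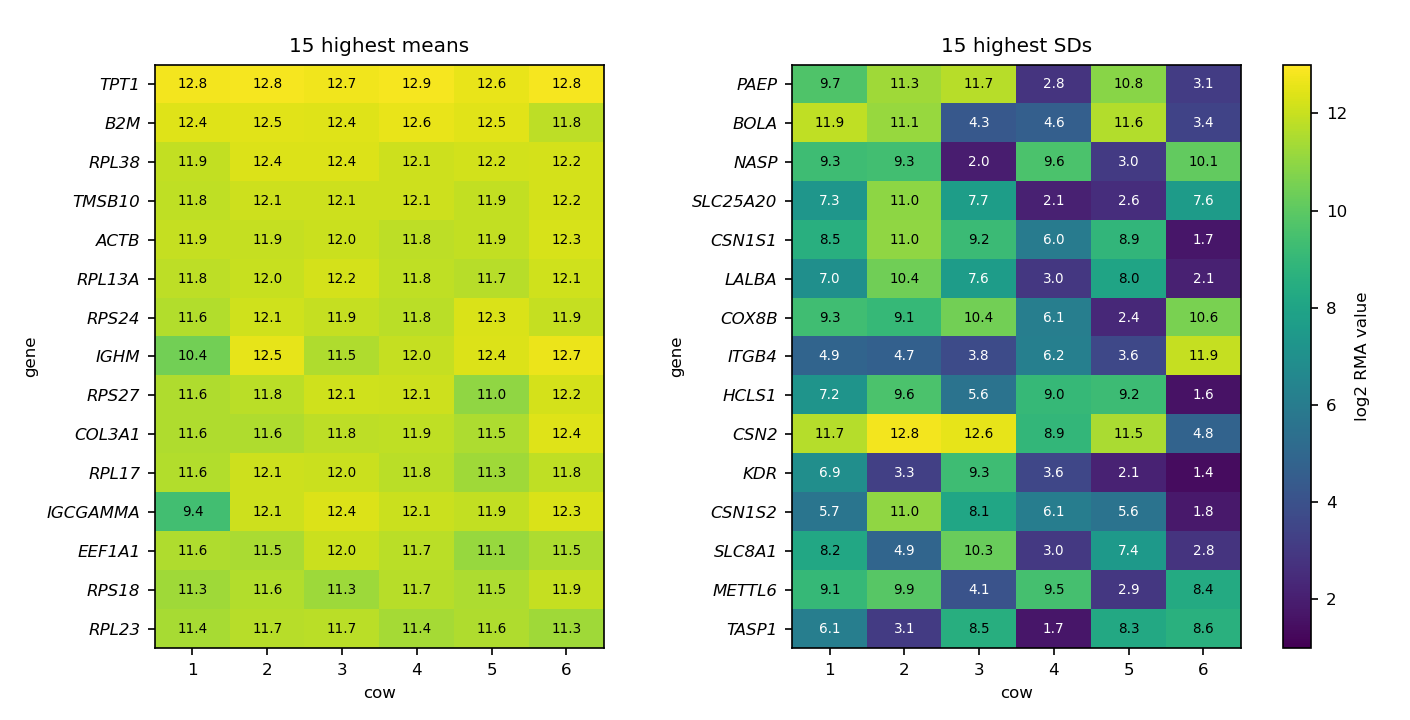
Log2 RMA values, as colour and number, of the 15 genes with the highest mean (left) and the 15 with the highest SD (right) in the 6 stroma arrays, with genes as rows and cows as columns. The left block is even except for IGHM and IGCGAMMA in cow 1. The right block mixes values above 9 with values below 3 in the same gene, except for BOLA, ITGB4, CSN2 and TASP1.

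The most distant value of the genes of high spread came most often from cow 5. Among the 521 genes of highest SD, the value farthest from the median of the others came from cow 5 in 189 genes (36.3%), from cow 6 in 123 (23.6%), from cow 4 in 86 (16.5%), from cow 3 in 82 (15.7%), from cow 2 in 21 (4.03%) and from cow 1 in 20 (3.84%). In cow 5 this value was low in 123 genes and high in 66. Each gene was given to 1 cow, also where several arrays lay apart. The counts therefore do not show how much of the spread a single array set. A further count took genes below 3.5 on a single array and above 6 on each of the others, bounds chosen after the data were seen. It held 33 genes for cow 5, 6 for cow 6, 2 for cow 3, 1 each for cows 1 and 4 and 0 for cow 2. RAC1, a GTPase of the cytoskeleton, was 3.13 in cow 5 and 7.15 to 8.60 in the others, ATP1B1, a subunit of the sodium pump, was 3.28 against 7.37 to 8.63, and CAPNS1, the small subunit of calpains, was 3.35 against 7.69 to 9.52. In cow 6 the receptor PIGR, which carries antibodies across epithelium, was 3.32 against 6.26 to 7.96. The reverse count, above 6 on a single array and below 3.5 on the others, held 5 genes for cow 5, 2 for cow 6 and 1 each for cows 3 and 4. SNAI1, a transcription factor of mesenchymal cells, was 8.99 in cow 4 and at most 3.06 elsewhere. The poly-A controls were highest and the correlation with the other arrays lowest in cows 5 and 6, and their part in these counts was not tested.

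Fibroblast genes were the steadiest of the cell type lists. Of 16 on the array 13 were kept, and THY1, LOX and FAP, with means of 2.25, 2.64 and 2.22, were not. The median SD of the 13 was 0.38, and 11 of them lay below the median SD of all genes. DPT, dermatopontin, a small matrix protein, was the single member in the top 10% (7.69% of the list, against 10% of all genes). It had 6.55, 7.04, 6.44, 7.87, 3.99 and 2.31, low in cows 5 and 6. PDGFRA, the receptor through which platelet-derived growth factor drives fibroblasts, had 7.68, 8.54, 7.49, 9.07, 5.65 and 9.36 (SD 1.35), lowest in cow 5. Its other 2 probe sets did not follow it (r = -0.25 and -0.24), and the second probe set of FN1 moved against the first (r = -0.87). Against genes of like mean, the SD of the median fibroblast gene lay at the 26.6 percentile. The members had little order in common, with a median correlation of 0.15 over 78 pairs. COL3A1 and MMP2, a protease of the matrix, were most alike (r = 0.92) and VIM and COL1A1 most opposed (r = -0.90).

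Vessel genes were fainter than fibroblast genes and spread more than these, about as much as all genes did. Of 21 on the array 16 were kept, with a median SD of 1.01, against 0.999 over all genes. VWF, TIE1, SOX18, MMRN1 and NOS3 were not kept. FLT1, a receptor for vascular endothelial growth factor, had 8.82, 8.01, 8.40, 7.37, 7.29 and 6.62 (mean 7.75 ± 0.81), but its other kept probe set was highest in cow 6, at 6.07 (r = -0.18). TEK, the angiopoietin receptor, had 7.04, 6.19, 7.34, 4.03, 3.99 and 1.99 (5.09 ± 2.10). The 3 lowest values of both probe sets shown came from cows 4, 5 and 6, which also had the 3 highest poly-A controls, whose part was not tested. This pair had the highest correlation of the list (r = 0.97). KDR, the second growth factor receptor, had 6.93, 3.26, 9.29, 3.56, 2.15 and 1.41 (SD 3.04), highest in cow 3, and its second probe set followed it (r = 0.85). CDH5, the cadherin of endothelial junctions, averaged 7.34 ± 0.78, CLDN5, a claudin of those junctions, 7.33 ± 1.08, and EMCN, a sialomucin of capillaries, 7.05 ± 1.46. ERG, an endothelial transcription factor, was highest in cow 5, at 9.93, and lowest in cow 6, at 4.64, and CD34, a marker of endothelium and of some fibroblasts, was steadiest, at 5.89 ± 0.39. The top 10% by SD held 3 of the 16 genes (18.8%), and 2 (12.5%) against genes of like mean, beside 9.98% of all genes. The median correlation over 120 pairs was 0.11. Endothelial genes thus had little order in common.

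Antibody genes of plasma cells were bright and, outside cow 1, even. JCHAIN, which joins IgM and IgA units, had 10.64, 11.70, 11.41, 11.42, 11.56 and 11.37 (11.35 ± 0.37). IGCGAMMA had 9.38, 12.11, 12.35, 12.06, 11.92 and 12.33, and its second probe set was lowest in the same cow, at 9.38. Cow 1 was lowest for IGHM, IGCGAMMA and JCHAIN. POU2AF1, a co-activator of B lineage cells, had 4.62, 7.37, 7.67, 5.58, 8.12 and 6.71. MZB1, a chaperone of antibody secretion, was fainter (mean 3.92) with a like order (r = 0.98, the highest of the list). Both were lowest in cow 1 as well. Over the 21 pairs of the list the median correlation was 0.003, and 11 pairs were above 0, so its genes had little order in common. PRDM1, a regulator of plasma cell fate, had 4.88, 5.47, 7.39, 5.77, 3.49 and 7.23 (SD 1.47), lowest in cow 5, but its 2 fainter kept probe sets moved against it (r = -0.39 and -0.36), and one of them was highest in cow 5, at 7.40. TXNDC5, a disulfide isomerase of many secretory cells, was steady at 7.39 ± 0.27, and FKBP11, a folding enzyme of the secretory pathway, averaged 5.66 ± 0.93. Of 10 plasma cell genes on the array 7 were kept, and 0 were in the top 10% by SD, also against genes of like mean. IGCGAMMA is not a member of this list or of its level. Its SD lay at the 92.2 percentile of genes of like mean, inside their top 10%. DERL3, CD38 and SLAMF7 were not kept.

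Smooth muscle and pericyte genes were led by tropomyosins. TPM1 and TPM2, which lie along actin filaments in many cell types, had means of 10.40 ± 0.55 and 10.10 ± 0.66. The second kept probe set of TPM2 moved against the first (r = -0.87) and was highest in cow 5, at 7.54, where the first was lowest, at 9.14. MYH11, the myosin of smooth muscle, had 7.87, 8.79, 7.59, 8.39, 6.34 and 8.52 (7.92 ± 0.89), and ACTA2, its actin, had 6.21, 6.29, 7.43, 7.79, 5.03 and 6.07 (6.47 ± 1.00). Both were lowest in cow 5. RGS5, a pericyte marker, averaged 5.93 ± 0.89, PDGFRB, the receptor of pericytes, 4.67 ± 0.47 and CSPG4, a pericyte proteoglycan, 4.08 ± 0.43. DES, the intermediate filament of muscle, was 7.82 in cow 3 and 2.84 to 3.88 in the others. Of 16 genes on the array 14 were kept, 1 of which (7.14%) was in the top 10% by SD. The median correlation over 91 pairs was 0.16, and MYH11 and TPM2 were most alike (r = 0.91). Contractile genes are shared with myoepithelium, so these values do not name one cell.

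Levels of the 4 cell lists, each the mean of its genes on an array, were compared over the 6 cows to ask how the cell types vary with each other. The fibroblast level was 9.44, 9.68, 9.54, 9.87, 9.15 and 9.64 in cows 1 to 6, and the vessel level 6.53, 6.12, 6.52, 5.85, 5.29 and 5.56. The smooth muscle level was 6.53, 6.70, 6.54, 6.56, 5.96 and 6.10, and the plasma cell level 6.57, 7.78, 8.01, 7.48, 7.54 and 7.72. Fibroblast, vessel and smooth muscle levels were lowest in cow 5, and the plasma cell level in cow 1. None of the 6 pairs passed an adjusted p of 0.05 (exact permutation over cows, two-sided, adjusted p from 0.450 to 0.900). The smallest exact permutation p that 6 cows allow is 0.00278 for rho, and it can be lower for r. For 0 of the 6 was the unadjusted p under 0.05. The largest was vessel with smooth muscle (Pearson r = 0.80, exact p = 0.0750, adjusted p = 0.450, Spearman rho = 0.49, exact p = 0.356, adjusted p = 1). Without cows 1 and 5, farthest from the median vessel level, r was 0.67.

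The other pairs were weaker. Fibroblast with smooth muscle gave r = 0.61 (exact permutation p = 0.217, adjusted p = 0.650, rho = 0.77, exact p = 0.103, adjusted p = 0.617), but -0.15 without cows 4 and 5. Fibroblast with vessel gave r = 0.24 (exact p = 0.672, adjusted p = 0.827, rho = 0.03, exact p = 1, adjusted p = 1) and -0.73 without cows 4 and 5. Fibroblast with plasma cell gave r = 0.21 (exact p = 0.633, adjusted p = 0.827, rho = 0.14, exact p = 0.803, adjusted p = 1) and 0.72 without the same cows. The plasma cell level gave r = -0.25 with vessel (exact p = 0.689, adjusted p = 0.827, rho = -0.03, exact p = 1, adjusted p = 1) and 0.71 without cows 1 and 5. With smooth muscle it gave r = -0.08 (exact p = 0.900, adjusted p = 0.900, rho = 0.26, exact p = 0.658, adjusted p = 1) and 0.19 without cows 1 and 3. Without cows 5 and 6, r was -0.96 for fibroblast with vessel, 0.28 for fibroblast with plasma cell and 0.33 for fibroblast with smooth muscle. It was -0.03 for vessel with plasma cell, -0.30 for vessel with smooth muscle and 0.48 for plasma cell with smooth muscle. The smallest exact permutation p that 4 cows allow is 0.0833 for rho, and it can be lower for r. The sign thus turned in 4 of the 6 pairs when the 2 farthest cows were left out and in 3 without cows 5 and 6, and the relation of these cell types was not resolved by 6 arrays.

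The 6 single markers gave the same outcome. Of their 15 pairs 0 passed (exact permutation, two-sided, adjusted p from 0.600 to 0.806), and for 0 was the unadjusted p under 0.05. DCN with COL3A1 was the highest (r = 0.77, exact p = 0.0611, adjusted p = 0.600, rho = 0.71, exact p = 0.136, adjusted p = 0.681). It was r = 0.26 without cows 1 and 6, farthest from the median of DCN, which also narrows the range of DCN. VIM with IGHM was the lowest (r = -0.75, exact p = 0.0917, adjusted p = 0.600, rho = -0.71, exact p = 0.136, adjusted p = 0.681) and was -0.92 without cows 3 and 6.

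The levels of the cell lists were also set against measures of the arrays. Of 16 relations between the 4 lists and array measures or the luminal list, 0 passed after adjustment and 1 had an unadjusted p under 0.05. That was the smooth muscle level against the average correlation of an array with the rest (r = 0.90, exact permutation p = 0.0111, adjusted p = 0.178, rho = 0.77, exact p = 0.103, adjusted p = 0.411, and r = 0.69 without cows 2 and 5). For the vessel level this gave r = 0.81 (exact p = 0.0514, adjusted p = 0.278, rho = 0.83, exact p = 0.0583, adjusted p = 0.411, and r = 0.78 without the same cows). Against the poly-A controls, r for vessel was -0.83 (exact p = 0.0542, adjusted p = 0.278, rho = -0.83, exact p = 0.0583, adjusted p = 0.411, and r = -0.995 without cows 1 and 2). For smooth muscle r was -0.82 (exact p = 0.0694, adjusted p = 0.278, rho = -0.77, exact p = 0.103, adjusted p = 0.411, and r = -0.87 without the same cows). For the fibroblast level r was -0.19 (exact p = 0.721, adjusted p = 0.944, rho = -0.31, exact p = 0.564, adjusted p = 0.917, and r = -0.40 without the same cows). The 2 cows with lactation numbers above 1 also had the lowest controls, so lactation number and this measure cannot be told apart for them.

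**Figure D5:**
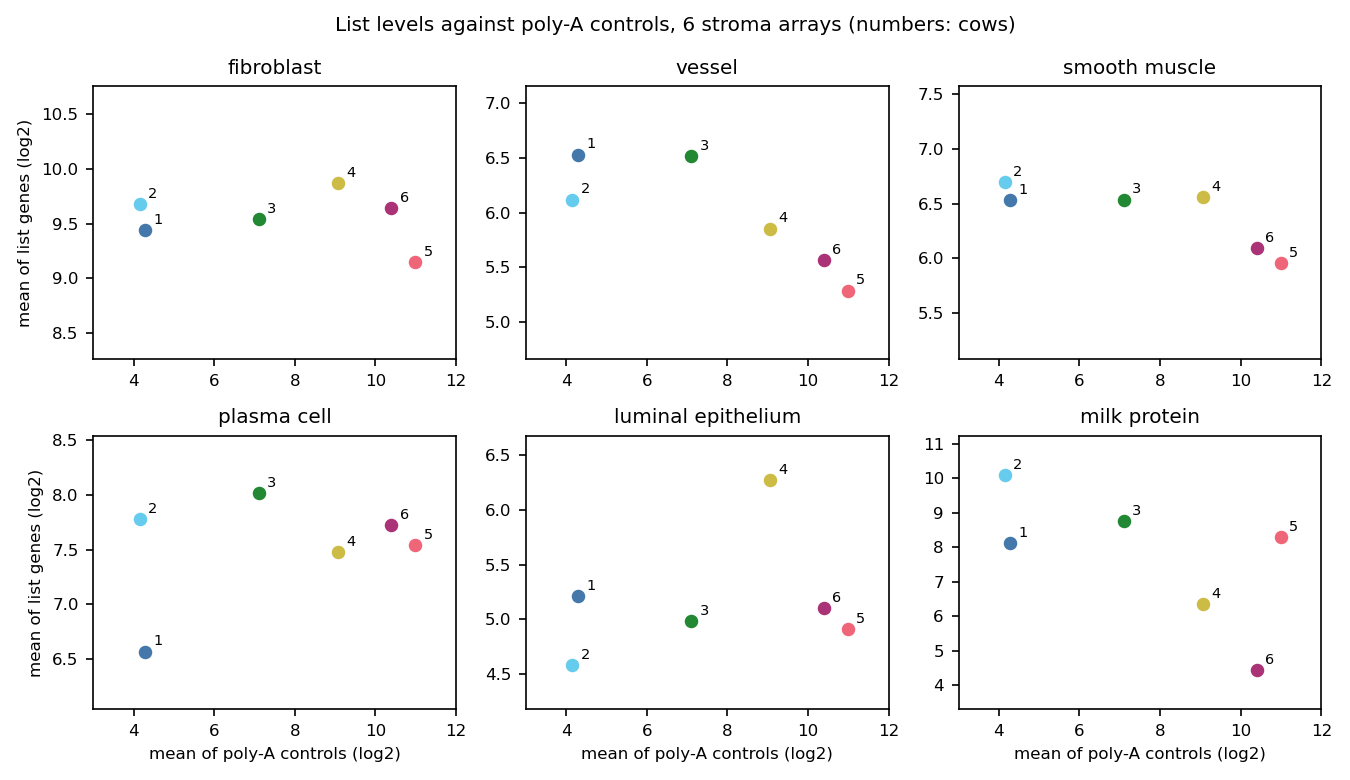
Mean log2 RMA value of the genes of 6 lists (y axes, whose ranges differ) against the mean of the poly-A control probe sets (x axis, log2) in the 6 stroma arrays, numbered by cow. The vessel and smooth muscle levels are lowest in cows 5 and 6, where the controls are highest, and the milk protein level covers the widest range, from 4.44 to 10.09.

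Genes of other cell types were also read. For macrophages 9 of 13 genes were kept, among them CTSS, a lysosomal protease (6.68 ± 0.52), AIF1, an actin-bundling protein (6.52 ± 0.75), and MSR1, a scavenger receptor, which had 4.48, 6.15, 5.78, 8.11, 10.62 and 4.45 and whose other probe sets did not share its peak in cow 5. For T and NK cells 7 of 15 were kept, led by the kinase ZAP70 at 6.88 ± 1.20 and CD3E of the T cell receptor complex at 5.91 ± 1.28. CD4, CD8A and CD8B were outside, with means from 2.13 to 3.02. CD79A of the B cell receptor was the sole B cell gene kept, at 7.79 in cow 3 and at most 3.70 elsewhere. KIT, a receptor of mast cells and also of some epithelium, was 4.12 in cow 5 and 8.61 to 9.29 elsewhere, but a fainter probe set was highest in cow 5, at 6.92. Of adipocyte genes, FABP4, a fatty acid carrier shared with capillary endothelium, averaged 9.06 ± 1.43 and CD36, a fatty acid transporter, 7.81 ± 0.80, both lowest in cow 6 (a fainter probe set of FABP4 was highest there, at 6.55), while ADIPOQ and LEP, hormones of fat cells, had means of 2.07 and 2.18. All 5 erythrocyte genes were dim, with HBA and HBB at means of 2.03 and 2.08 and no value above 2.96.

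Single members of the secreted and complement lists spread widely. FGF10, a fibroblast factor that acts on epithelium, had 6.73, 6.13, 8.68, 2.81, 4.16 and 8.39 (SD 2.32). IL6, a cytokine, had 7.74, 7.65, 7.25, 5.08, 1.74 and 5.40, and SFRP4, a secreted Wnt antagonist, had 3.01, 2.77, 3.01, 7.76, 7.20 and 5.13. Cows 4, 5 and 6 gave the 3 lowest values of IL6 and the 3 highest of SFRP4. IGF1, a growth factor made by stroma, averaged 5.87 ± 1.61 and was lowest in cow 5, at 2.89. Its fainter kept probe sets did not follow it (r = 0.08 and 0.31) and were 4.65 and 4.51 in cow 5. IGF2 averaged 6.57 ± 1.56 and was lowest in cow 1, at 3.90. C7, a late complement protein, had 7.87, 9.13, 7.60, 7.95, 2.25 and 4.71 (SD 2.58), low in cows 5 and 6. Of 16 secreted signal genes 3 (18.8%) and of 9 complement genes 2 (22.2%) were in the top 10% by SD, with median SDs of 0.77 and 0.78. Against genes of like mean the counts were 4 (25%) and 1 (11.1%), beside 9.98% of all genes.

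Housekeeping lists were even in their mean level, but the ribosomal genes were steadier one by one than the respiratory chain genes. The mean of 66 cytosolic ribosomal genes was 9.52, 9.88, 9.93, 9.96, 9.53 and 10.05, the median SD of its members was 0.36, and 61 of them lay below the median SD of all genes. RPL37 was the exception in the top 10% (1.52% of the list), from 2.60 in cow 5 to 8.13 in cow 6. The mean of 72 respiratory chain genes ran from 5.77 in cow 5 to 6.44 in cow 6, with ATP5ME, a subunit of ATP synthase, steady at 10.86 ± 0.19. Of the 72 genes 5 (6.94%) were in the top 10%, and 7 (9.72%) against genes of like mean. Their median SD was 0.86, against 0.999 over all genes, and the median correlation of their pairs was 0.05. Of 19 proliferation genes on the array 7 were kept, led by PCNA, the clamp of DNA polymerase, at 6.28 ± 0.62. CDK1, CCNB1 and PLK1, which drive mitosis, were outside, with means from 1.71 to 2.72.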

How the data were processed

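The deposited values of the 6 stroma captures are log2 intensities, which the authors computed by RMA (named in the submitters' processing notes, version not given in the sources used here) over these and further arrays of the study. They had been normalized already and were used as deposited. Of 24128 probe sets 112 are controls. By the platform annotation 13292 of the others have 1 gene symbol, 86 several and 10638 none, and 13263 matched the reference table, with 0 symbols changed. The brightest 10000 probe sets by their stroma mean were kept (lowest mean 3.57), and 6480 of them with 1 symbol gave 5210 genes. A gene has its brightest probe set. Of the named and list genes, 62 have 88 other kept probe sets, 24 of which correlate below 0 with the brightest, and the text gives this for some of them only.

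Means and SDs were computed over the 6 cows in Python 3.11.15 with numpy 2.4.6, pandas 2.3.3 and scipy 1.17.1, and plots were drawn with matplotlib 3.10.9. Correlations between list levels were tested by exact two-sided permutation over all 720 orders of the cows, with Benjamini-Hochberg adjustment within families of 6, 15 and 16 relations, after the functions had been tested on simulated data. No test between tissues was made, and the spread of genes was described without a test. Genes named are the 6 markers, the 15 with the highest mean, the 15 with the highest SD, the 10 steadiest of the brightest 25%, and of each of 23 lists the 3 with the highest mean, the one with the highest SD and the one with the lowest. All other genes named, list members and members of the single-array counts included, were chosen after their values were seen. The markers, lists and rules were chosen with earlier results of these data known. No sequence is shown. Alternatives changed the scaling, filter, probe set, list level, measure of spread and cows. Leaving out cows 5 and 6 together and setting SDs against genes of like mean were chosen after seeing the data. Arrays have no read depth.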

Additional observations from a re-analysis of the deposited data

Results flagged for a closer look

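For 138 values over the 6 cows (named genes, list levels and array measures), the distance of the highest or lowest cow from its neighbour was set against the whole range. In 14 (10.1%) a single cow lay apart by the 95% value of Dixon's test, which chance exceeds in about 1 of 20 groups. Many of the values are of genes chosen for a high SD over the same arrays, to which that rate does not apply.

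Antibody genes were low in cow 1. IGCGAMMA was 9.38 there and 11.92 to 12.35 in the others, JCHAIN 10.64 against 11.37 to 11.70, and the plasma cell level 6.57 against 7.48 to 8.01. In cow 4 the immediate-early factors JUN and EGR1 were low. JUN was 9.58 against 11.17 to 11.82 and EGR1 9.50 against 10.88 to 11.41, although another kept probe set of EGR1 was 7.84 there and lowest in cow 1, at 6.42. Some fainter kept probe sets of JUN were also lowest in cow 4, at 7.89 and 5.02, and others in cow 1, at 3.55, or cow 2, at 3.68. The mean of the immediate-early list was lowest in cow 4, at 8.79, but FOSL2, another such factor, was highest there, at 9.64. COL12A1, a collagen that binds to fibrils, was also low in cow 4, at 4.91 against 8.04 to 9.54. A fainter kept probe set of it was 6.10 there, inside its range of 4.23 to 6.86, and another was 2.48, near its lowest of 2.39 in cow 5. The luminal epithelium level was high in cow 4, at 6.28 against 4.58 to 5.21. In cow 6, B2M was low at 11.79 (others 12.43 to 12.61), although a fainter probe set of it was 12.44 there, CSN3 was low at 8.02 (others 10.94 to 12.13), and ITGB4 was high at 11.95 (others 3.60 to 6.19), as was PRELP, a matrix proteoglycan, at 8.50 (others 2.56 to 4.64), although a fainter kept probe set of PRELP was 4.41 there and highest in cow 5, at 4.73. In cow 3, DES was high at 7.82 (others 2.84 to 3.88) and CD79A at 7.79 (others 1.99 to 3.70). In cow 5, KIT was low at 4.12 (others 8.61 to 9.29).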

How the results depend on the processing

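No paired analysis was possible because the stroma captures are the only group described, so no result comes from a comparison of groups. Of 378 values of the main results under an alternative, 326 stayed close to the main value, or kept the sign and the side of the threshold. With arrays centred on their median, the mean correlation of an array and the smooth muscle level passed (r = 0.93, exact permutation, adjusted p = 0.0222). With the brightest 5000 probe sets it passed as well (r = 0.92, exact adjusted p = 0.0444), as did the vessel level with the mean correlation (r = 0.95, exact adjusted p = 0.0444) and with the poly-A controls (r = -0.96, exact adjusted p = 0.0444). Why these passed was not tested. The stricter filter, with fewer genes tested, left 190 genes with an SD over 2 in place of 314. Of the 15 genes with the highest SD, 8 to 14 remained among the 15 when a cow was left out, with 8 without cow 6, and 7 remained without cows 5 and 6. With the median absolute deviation in place of the SD, which gives a single array little weight, 2 remained. No pair of list levels passed under the 8 alternatives that kept all 6 cows (lowest exact adjusted p 0.133). The smallest exact permutation p of rho is 0.0167 with 5 cows and 0.0833 with 4, too large for a single pair to pass after adjustment. That of r can be lower, but fits on so few cows are not read on this.

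Of 448 correlations under alternatives 57 changed sign, in 23 of 37 relations, and the cause was not tested. With arrays centred on their median, the GAPDH gap, by which the control probe set at the 3′ end of GAPDH exceeded that at the 5′ end, correlated with vessel at 0.0042 and with smooth muscle at 0.013. Normalized again, VIM with S100A4 gave 0.023 and S100A4 with COL3A1 -0.10. Averaging probe sets gave -0.0058 for fibroblast with vessel, 0.0092 for plasma cell with smooth muscle, -0.10 for S100A4 with COL3A1, 0.13 for poly-A controls with fibroblast, and 0.14 and 0.042 for vessel with the GAPDH gap and with the luminal list. Without a filter, plasma cell with smooth muscle gave 0.20, the GAPDH gap with vessel 0.17 and luminal with smooth muscle -0.032. With the brightest 5000, the GAPDH gap gave 0.024 with vessel and 0.29 with smooth muscle, and luminal with vessel 0.14. With probe sets above the median on 4 of 6 arrays, luminal with vessel gave 0.073 and the GAPDH gap with smooth muscle 0.14. List medians gave -0.10 for fibroblast with vessel and -0.25 with smooth muscle. Without cows 5 and 6, fibroblast with vessel gave -0.96, vessel with smooth muscle -0.30, plasma cell with smooth muscle 0.48, S100A4 with PECAM1 -0.27, fibroblast with poly-A controls 0.65 and with the mean correlation -0.49, and luminal with smooth muscle -0.56.

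Leaving out a cow at a time turned the sign in 21 relations. Fibroblast ran from -0.74 to 0.46 with vessel, -0.0034 to 0.39 with plasma cell, -0.45 to 0.50 with poly-A controls, -0.36 to 0.75 with the mean correlation and -0.091 to 0.73 with luminal. Vessel ran from -0.60 to 0.79 with plasma cell, -0.70 to 0.47 with the GAPDH gap and -0.42 to 0.40 with luminal. Plasma cell ran from -0.24 to 0.34 with smooth muscle, -0.53 to 0.63 with poly-A controls and -0.51 to 0.40 with the mean correlation. Smooth muscle ran from -0.85 to 0.54 with the GAPDH gap and -0.061 to 0.49 with luminal. VIM ran from -0.43 to 0.26 with S100A4 and -0.84 to 0.12 with COL3A1. S100A4 ran from -0.041 to 0.55 with COL3A1, -0.26 to 0.62 with PECAM1 and -0.26 to 0.73 with IGHM. DCN with PECAM1 ran from -0.14 to 0.59, COL3A1 with IGHM from -0.026 to 0.57, and PECAM1 with IGHM from -0.72 to 0.038.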
